A study of Mus musculus with 8 samples.

Results

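Chromatin modifiers and remodellers were followed in microglia, the resident macrophages of the brain, after injection of IL-33, an alarmin cytokine of the IL-1 family. Genes were taken by name (the Kdm, Kmt, Hdac, Sirt, Setd, Ezh, Dnmt, Tet, Brd, Smarc, Arid and Chd families, with 3 X- or Y-linked demethylases left out) and were selected on 1 measured value, a mean normalised read count of at least 10 over 8 libraries. Of 55471 rows in the table, 108 carried such a name and 93 of these reached the mean. All 93 were annotated as protein coding. The remaining 15 rows were not tested, and 10 of them were at 0 in every library, among them Smarca1, Dnmt3l and Kdm4d. The members just inside the minimum were Sirt6 and Smarcd3, with means of 12.5 and 13.6, and the rows just outside were Kdm8 and Smarca5-ps, with means of 2.47 and 0.723. The minimum was met through 1 group alone, with the other group's mean under 10, by 5 members: Brd3os, Chd5, Sirt6, Smarcd3 and Tet1. Brd3os and Brd8dc match the naming rule without being bromodomain readers, and Arid3a, Arid3b, Arid5a and Arid5b are DNA-binding ARID proteins rather than remodeller subunits.

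The tested group was hippocampal microglia taken 4 hours after IL-33 (4 libraries, replicates 1 and 2 from females and 3 and 4 from males). The control group was taken 4 hours after PBS, the control injection (4 libraries, replicates 5 and 6 from females and 7 and 8 from males). All mice were C57/Bl6 at postnatal day 30, were perfused before dissection, and gave microglia by flow sorting for CD11B together with low CD45 and no Ly-6C. No mutant allele is named for either group, and the labels do not say that each library is its own animal, so p-values measure the spread between these libraries, which may be technical.

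DNA in a cell is wrapped around histones, and many of the proteins described here, though not all, affect how accessible that DNA is. Writers and erasers place or remove acetyl and methyl groups on histones and DNA, readers bind those marks, and remodellers use ATP to slide, eject or exchange nucleosomes. In macrophages these factors set which enhancers and promoters can answer an inflammatory signal.

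Libraries held 16827343 to 21483352 reads. The number of genes reaching 10 reads was 10736, 10432, 8948 and 7958 for IL-33 libraries 1 to 4, against 10950, 10311, 11902 and 10905 in PBS libraries 5 to 8, so that the male IL-33 libraries 3 and 4 detected the fewest. Of the 10 microglia markers, all were tested and 2 were lower after IL-33 (P2ry12 and Csf1r), and their summed value was 379501 to 652222 after IL-33 against 516540 to 747665 after PBS. The neutrophil and lymphocyte lists (5 genes each) summed to less than 1 in every library, with 4 of the 5 genes at 0 in all of them. The 5 monocyte markers summed to 114 to 509 after IL-33 and 6.82 to 161 after PBS, with Chil3 at 0 in all libraries and Ly6c2 at 0 in all IL-33 libraries. The sort itself left out cells with Ly-6C. Vcan was at 228, 421, 366 and 0 after IL-33 against 0, 0, 0.82 and 0 after PBS (limma adjusted p = 0.15). Ccr2 had a log2 fold change of 1.54 and Plac8 of -3.56 (limma adjusted p = 0.73 and 0.34). The 5 oligodendrocyte markers summed to 3221 to 4961 after IL-33 against 1960.5 to 3476 after PBS, and 14 genes of dividing cells to 2023 to 4513 against 2031 to 4041. None of the genes on these other lists was called, and their part in the results below was not tested.

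Among the 93 members, 2 rose after IL-33 (Kdm4a and Chd4), 9 fell (Smarca2, Arid3a, Arid5b, Arid4a, Arid4b, Chd9, Kmt2c, Kmt2e and Kdm7a), and 82 did not pass limma's test at an adjusted p of 0.05. Over all 13877 genes tested, 3.06% were called higher and 2.80% lower (5.85% in all), against 2.15% and 9.68% of the members. The edgeR test called 1 member higher and 7 lower, against 3.16% and 2.29% of all genes, and all 8 were also limma calls in the same direction. DESeq2 called 3 higher and 12 lower, against 5.69% and 6.32% of all genes: the 11 limma calls with Brd3os, higher, and Tet1, Kdm5b and Setd2, lower. Brd3os and Tet1 reached the minimum mean through 1 group alone, so their calls are not independent of the selection. The median log2 fold change (IL-33 minus PBS on log2 of the value plus 1) was -0.63 over the members and -0.40 over all genes tested. Level bears on this comparison: among the 43 members with a mean of at least 1000, 2 rose and 8 fell, with a median of -0.49, where 10.9% of the 3116 genes at that level were called higher and 8.34% lower, with a median of 0.083. In bulk samples, fewer cells of a type and less RNA per cell cannot be told apart.

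**Figure D1:**
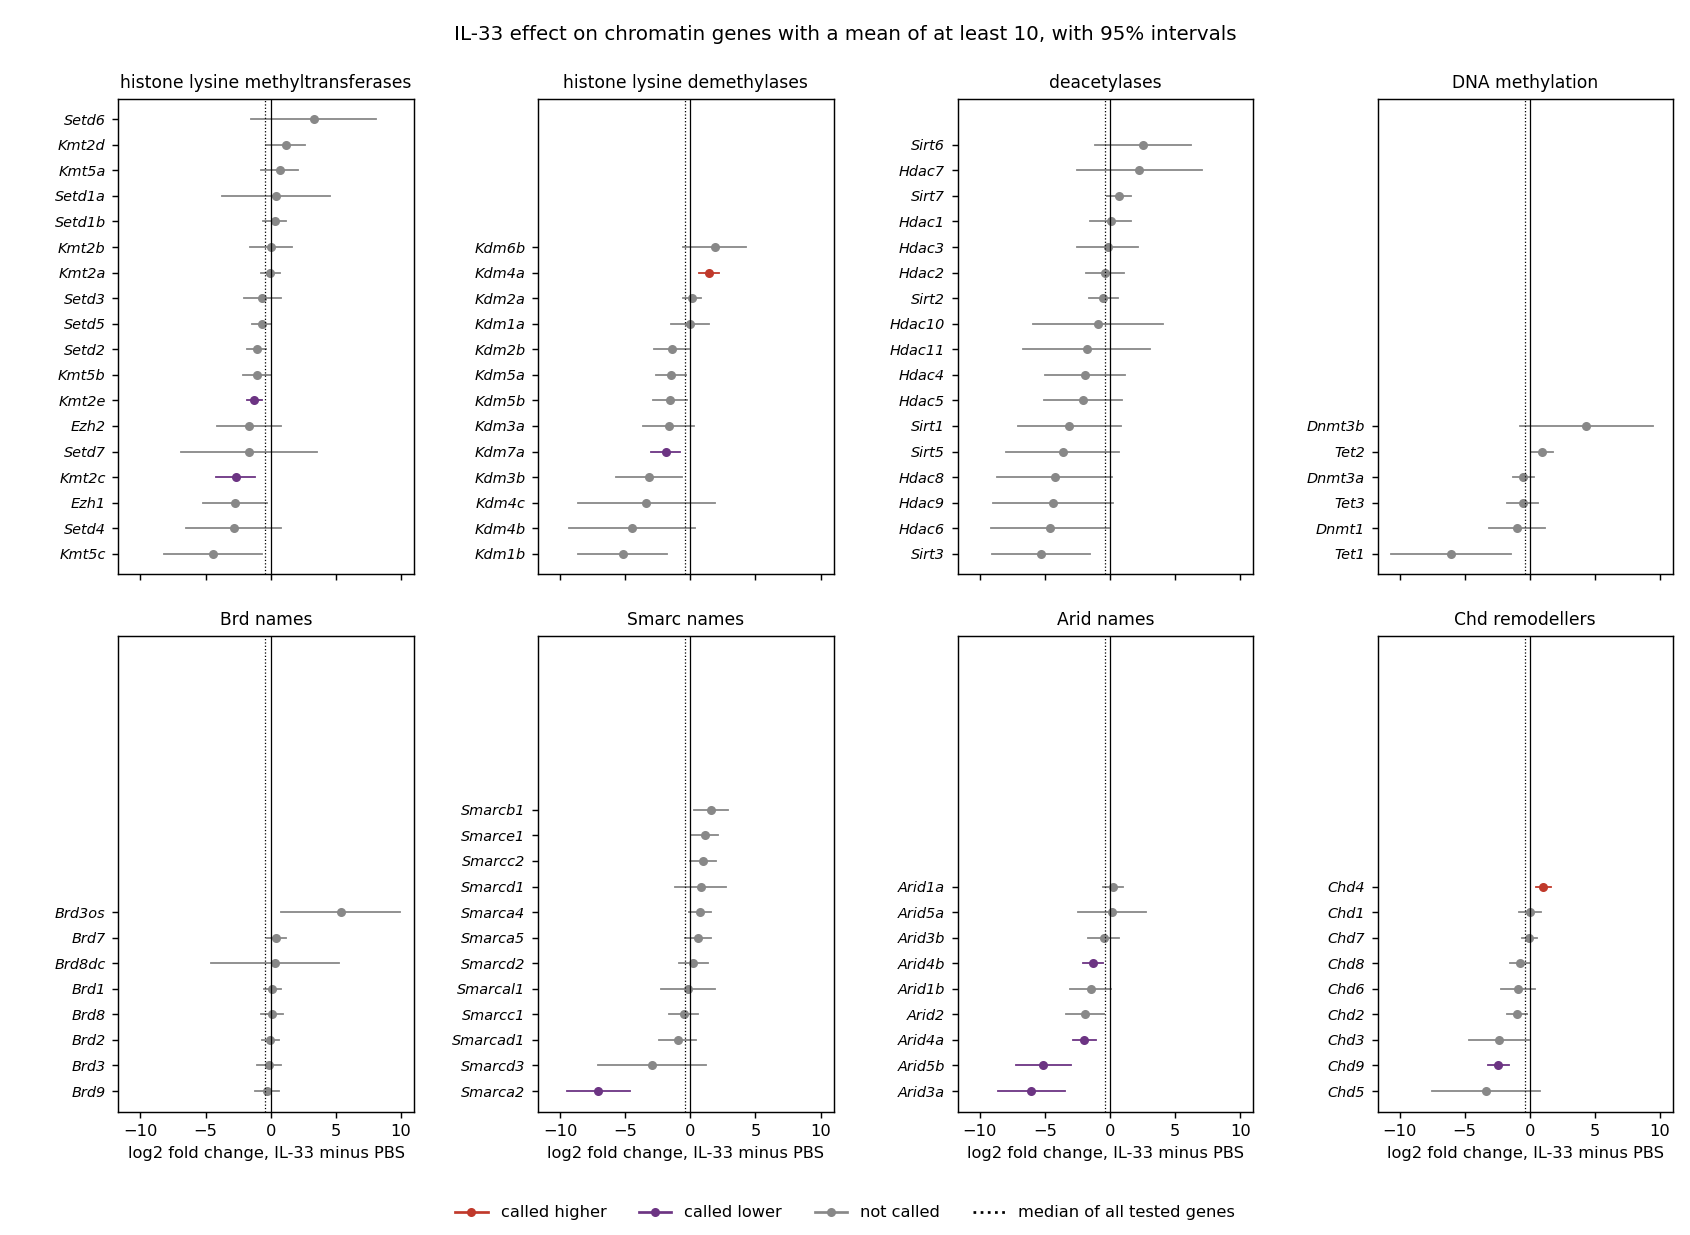
Log2 fold changes (IL-33 minus PBS) of 92 of the 93 members in 8 classes taken by name, each with its 95% interval. The dotted line marks the median of all genes tested, -0.40. The 9 members called lower and 2 called higher lie among 81 plotted members that were not called, and the intervals are widest for members near 0 in several libraries.

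The promoter windows below are shown for Smarca2, Chd9, Kdm4a and Chd4, the pair of called members with the smallest adjusted p in each direction. They are RefSeq windows of GRCm38.p6 from 250 bases before to 50 after a start, and capitals mark a match to GGGNNTTCC (an NF-kB motif) or TGANTCA (an AP-1 motif) on either strand. These windows, and the motifs set in capitals, were chosen after the matches had been seen. Another window of Chd9 and another of Chd4 held neither motif and are not shown.
Smarca2, chr19:26604910-26605209, plus strand, AP-1 match from base 279: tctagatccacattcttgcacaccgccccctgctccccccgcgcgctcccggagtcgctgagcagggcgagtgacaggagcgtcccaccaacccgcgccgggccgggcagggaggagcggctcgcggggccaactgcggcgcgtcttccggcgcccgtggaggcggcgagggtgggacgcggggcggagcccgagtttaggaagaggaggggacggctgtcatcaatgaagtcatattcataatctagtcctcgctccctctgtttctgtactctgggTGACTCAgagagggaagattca
Chd9, chr8:90828585-90828884, plus strand, NF-kB match from base 146: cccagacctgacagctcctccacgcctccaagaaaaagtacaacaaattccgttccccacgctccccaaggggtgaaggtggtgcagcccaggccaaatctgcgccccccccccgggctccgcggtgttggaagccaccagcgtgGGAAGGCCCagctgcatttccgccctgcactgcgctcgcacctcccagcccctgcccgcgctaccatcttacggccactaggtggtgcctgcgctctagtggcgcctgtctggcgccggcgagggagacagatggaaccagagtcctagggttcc
Kdm4a, chr4:118179994-118180293, minus strand, AP-1 match from base 61: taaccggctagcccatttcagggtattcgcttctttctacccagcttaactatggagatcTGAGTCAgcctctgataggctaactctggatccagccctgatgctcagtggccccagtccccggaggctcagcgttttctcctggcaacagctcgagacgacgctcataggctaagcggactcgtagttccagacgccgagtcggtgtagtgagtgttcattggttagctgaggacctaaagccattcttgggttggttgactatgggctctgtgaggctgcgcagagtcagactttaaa
Chd4, chr6:125095913-125096212, plus strand, NF-kB match from base 208: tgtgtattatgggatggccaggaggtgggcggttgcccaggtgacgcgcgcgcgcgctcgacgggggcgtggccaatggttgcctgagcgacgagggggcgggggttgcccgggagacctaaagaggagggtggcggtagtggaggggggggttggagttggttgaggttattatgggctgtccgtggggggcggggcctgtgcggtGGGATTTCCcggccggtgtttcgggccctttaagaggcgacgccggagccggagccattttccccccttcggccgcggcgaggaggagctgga

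Windows were found for 71 members and 8 of the 11 called members, some with more than 1 window. GGGNNTTCC occurred in 7% of the 100 member windows and 5.82% of all 32851 windows, and TGANTCA in 7% and 7.81%. Each of these motifs was in 2 of the 10 windows of called members. A looser NF-kB motif, GGG and CC around 5 free bases, occurred in 74% of member windows and 50.79% of all. Member windows had a median GC content of 65% against 52.67% over all windows. The cyclic AMP element TGACGTCA was in 0% of member windows and 1.79% of all, and the PU.1 core GAGGAA in 23% and 28.28%. A match is a description of letters in a window and not a bound site.

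The SWI/SNF complex is a remodeller that carries 1 of a pair of alternative ATPases, Smarca2 (BRM) or Smarca4 (BRG1). Smarca2 had normalised counts of 126, 87.2, 3.95 and 2.87 after IL-33, against 2678, 2376, 4181 and 2606 after PBS. The groups did not overlap, and the male IL-33 libraries 3 and 4 were lowest. Its mean was 54.9 ± 61.5 after IL-33 and 2960.3 ± 824 after PBS (SD, n = 4 each), a log2 fold change of -7.07 ± 1.17 (SE; limma adjusted p = 6.46e-04). Smarca4 had 3436, 2096, 3420.4 and 1996 after IL-33 and 1297, 1563, 2490.0 and 1173 after PBS, with overlapping groups and a log2 fold change of 0.76 (95% interval -0.09 to 1.62; limma adjusted p = 0.32). By group means Smarca2 was 53.9-fold lower after IL-33, and its log2 fold change by edgeR was -5.73. An exon of it overlaps the opposite-strand gene 4931403E22Rik, with strand handling in the counting not given in the sources used here.

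The Smarc class was taken by name, and it includes Smarca2 itself and members outside SWI/SNF such as Smarca5. Of its 12 members, 1 was called lower (Smarca2) and none higher (edgeR: 0 higher, 1 lower; unadjusted p under 0.05 for 3). Of all genes tested 2.80% were called lower, and 8.34% of those with a mean of at least 1000. Log2 fold changes were positive for 7 members, with a class median of 0.40. They were negative for 5: Smarca2, Smarcad1, Smarcal1, Smarcc1 and Smarcd3. Smarcb1, a core subunit, had 952, 1015, 1185 and 2227 after IL-33 against 361, 930.4, 239 and 372 after PBS. Smarcc2, a scaffold subunit, had 1101, 1665, 2242 and 1573 against 900.1, 788, 885 and 650.4, and Smarce1 had 1551, 1232, 1679.6 and 4843 against 1158, 877, 661 and 1118. The groups did not overlap for any of these 3, yet limma's adjusted p-values were 0.15, 0.26 and 0.24. Smarca5, the ATPase of the ISWI remodellers, had 1885, 2171, 1755 and 2482 after IL-33 against 1519, 1788, 2401 and 549 after PBS (log2 fold change 0.58, limma adjusted p = 0.54). Smarcd3 was at 1.04, 0, 0 and 4.78 after IL-33 and at 47.4, 30.7, 24.6 and 0 after PBS (limma adjusted p = 0.44). Over all tested genes, groups did not overlap for 6.26% in the higher and 7.41% in the lower direction, against 8 and 18 of the 93 members. Tet1, 1 of these 18, met the minimum mean through its PBS group alone.

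**Figure D2:**
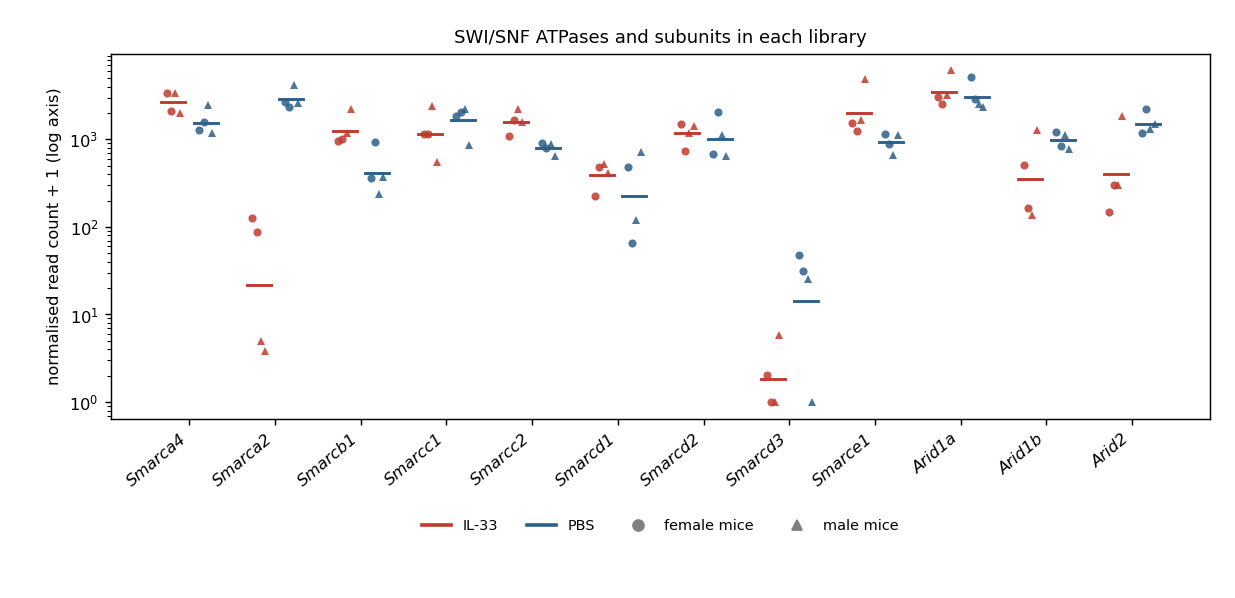
Normalised counts of SWI/SNF members by library (value plus 1, log axis), IL-33 left of PBS, circles for females, triangles for males and a bar for each group mean of the log values. Smarca2 is at 2.87 to 126 after IL-33 and at 2376 to 4181 after PBS, while the points of Smarca4 overlap between the groups.

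Of the 9 Arid members, 4 fell and none rose (limma; edgeR called 3 lower and 0 higher, and 5 had an unadjusted p under 0.05), where 2.80% of all genes tested, and 8.34% of those with a mean of at least 1000, were called lower. Arid3a, a DNA-binding transcription factor first described in B cells, had 121, 66.0, 4.93 and 3.82 after IL-33 against 1018, 2123, 1419 and 1425 after PBS. Arid5b, which binds DNA and works with the demethylase Phf2, had 167, 113, 348 and 4.78 after IL-33 against 3117, 3135, 3579 and 1610.0 after PBS. The groups stood far apart for both. Log2 fold changes were -6.04 ± 1.237 for Arid3a and -5.12 ± 1.00 for Arid5b (SE; limma adjusted p = 0.00471 and 0.00319). By edgeR they were -4.92 and -4.16.

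Arid4a and Arid4b are retinoblastoma-binding subunits of the Sin3 deacetylase complex. Arid4a had 3495, 1187, 849.7 and 1250.3 after IL-33 against 5598, 5328, 7386 and 4866 after PBS, and the first IL-33 library was the closest to the controls. Arid4b had 3017, 2196, 2116 and 1089.8 after IL-33 against 4380.3, 4955, 7061 and 3717 after PBS. Log2 fold changes were -1.98 ± 0.41 and -1.30 ± 0.37 (SE; limma adjusted p = 0.00527 and 0.0454). The SWI/SNF subunits with Arid names did not pass the test: Arid1a had a log2 fold change of 0.20, Arid1b of -1.48 and Arid2 of -1.92 (limma adjusted p = 0.78, 0.29 and 0.13).

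**Figure D3:**
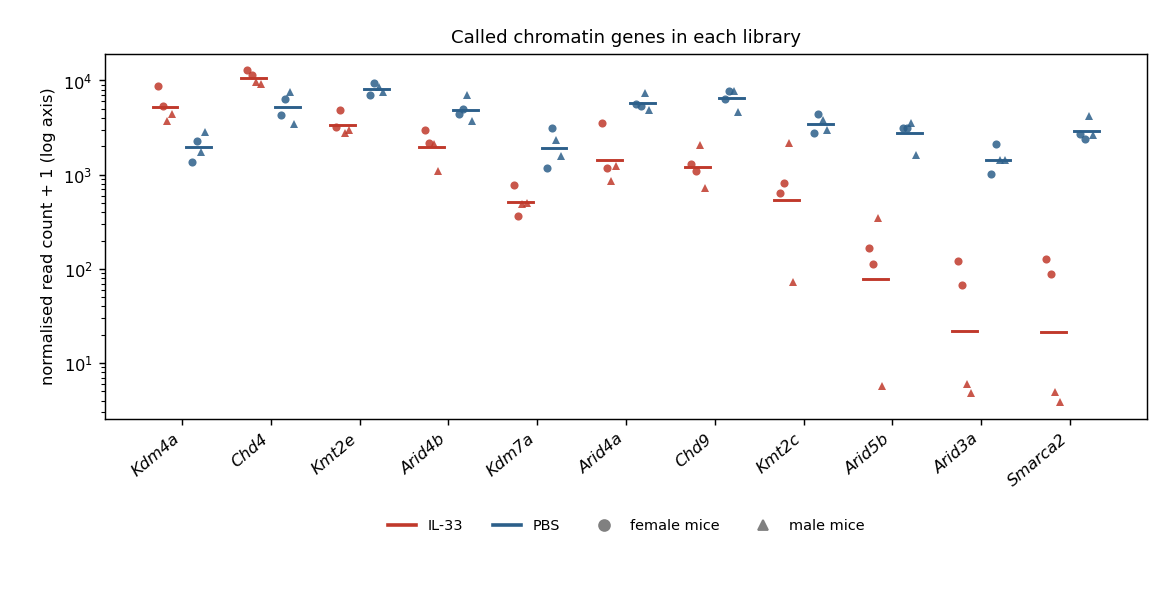
Normalised counts of the 11 called members in every library (value plus 1, log axis), IL-33 left of PBS, circles for females, triangles for males and a bar for each group mean of the log values. No member's groups overlap, and 9 of the 11 are lower after IL-33.

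Among the 9 Chd remodellers, 1 rose and 1 fell. Of all genes tested, 3.06% were called higher and 2.80% lower. Of those with a mean of at least 1000, the level of both called Chd members, 10.9% and 8.34% were. Chd4, the ATPase of the NuRD complex, had 12798, 11517, 9625 and 9082 after IL-33 against 4345, 6365, 7535 and 3444 after PBS. Its mean was 10756 ± 1716 after IL-33 and 5422 ± 1864 after PBS (SD, n = 4 each), a log2 fold change of 1.04 ± 0.28 (SE; limma adjusted p = 0.0314, edgeR adjusted p = 0.0567). Chd9 had 1308, 1106, 2057 and 716 after IL-33 against 6347, 7697, 7700.0 and 4614 after PBS, with a log2 fold change of -2.42 ± 0.38 (limma adjusted p = 4.17e-04). Neither overlapped between the groups, while Chd7, mutated in CHARGE syndrome in humans, overlapped at 4675, 4558, 3674 and 5948 after IL-33 and 4200.0, 5012, 5674 and 4314 after PBS (log2 fold change -0.037, 95% interval -0.64 to 0.56). Chd5 was at 0 in all IL-33 libraries and at 0, 0, 81.3 and 148 after PBS (limma adjusted p = 0.37), so 2 male PBS libraries carried all of its counts.

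Histone lysine demethylases erase methyl marks, and 1 of 13 rose and 1 fell. All genes tested were called higher in 3.06% and lower in 2.80%. Those with a mean of at least 1000, the level of both called demethylases, were in 10.9% and 8.34%. Kdm4a, a JmjC demethylase that removes trimethyl marks, had 8736, 5413, 3683 and 4453 after IL-33 against 1361, 2274, 1749.8 and 2850.1 after PBS. Kdm7a, which removes repressive dimethyl marks, had 781, 366, 489 and 498 after IL-33 against 1163, 3141, 2334 and 1581 after PBS. Neither pair of groups overlapped, and log2 fold changes were 1.41 ± 0.37 and -1.90 ± 0.53 (SE; limma adjusted p = 0.0259 and 0.0406).

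The other 11 demethylases did not pass limma's test. Kdm6b, which removes the Polycomb methyl mark and is known to be induced in macrophages by inflammatory stimuli, had 510.2, 189, 539.8 and 126 after IL-33 against 103, 99.7, 61.6 and 55.7 after PBS (log2 fold change 1.87, limma adjusted p = 0.40). Kdm1b, a flavin-dependent demethylase, had 60.3, 0.846, 490.5 and 1.91 after IL-33 against 1196, 985, 419.8 and 614 after PBS (log2 fold change -5.21, limma adjusted p = 0.0684). Its log2 fold change by edgeR was -2.53. IL-33 library 3 was above PBS library 7, and the other 3 IL-33 libraries were below every PBS library. Kdm5a, Kdm5b and Kdm3b had groups that did not overlap, all lower after IL-33 (log2 fold change -1.49, -1.57 and -3.16; limma adjusted p = 0.13, 0.17 and 0.15). Kdm4b was at 476, 0.846, 0 and 0 after IL-33 and at 122, 36.6, 138 and 348 after PBS, and Kdm2a overlapped with a log2 fold change of 0.11.

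The histone lysine methyltransferase class was taken by Kmt, Setd and Ezh names, and the activity of each member was not checked. Of its 18 members, 2 fell and none rose by limma, and 6 had an unadjusted limma p under 0.05. The edgeR test called 1 lower and 0 higher. All genes tested were called lower in 2.80%, and those with a mean of at least 1000, the level of both called members of the class, in 8.34%. Kmt2c (MLL3) places the enhancer mark together with Kmt2d (MLL4), and had 642, 807, 2150.3 and 71.6 after IL-33 against 2767, 4418, 3795 and 2994 after PBS. Its log2 fold change was -2.69 ± 0.73 (SE; limma adjusted p = 0.0334, edgeR adjusted p = 0.0713). Kmt2e (MLL5), an MLL family protein, was the most abundant member under PBS and had 3221, 4853, 2758 and 2989.6 after IL-33 against 6943, 9334, 8578 and 7607 after PBS (log2 fold change -1.26 ± 0.28, limma adjusted p = 0.0102). Kmt2d had 351, 664, 1291 and 1369 after IL-33 against 249.8, 464, 218 and 682 after PBS, with a log2 fold change of 1.14 in the other direction (limma adjusted p = 0.40).

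Setd2, which trimethylates histone H3 along transcribed genes, had 1619.9, 1719, 1588 and 2693 after IL-33 against 3711, 4895, 3581 and 3484 after PBS, with a log2 fold change of -1.06 that missed the threshold (limma adjusted p = 0.0849, DESeq2 adjusted p = 0.0263). The Polycomb methyltransferases Ezh1 and Ezh2 had log2 fold changes of -2.72 and -1.65 (limma adjusted p = 0.20 and 0.46), with Ezh1 at 719, 434, 516 and 4.78 after IL-33 and 559.7, 1758, 1056 and 1684 after PBS. Kmt5c had a log2 fold change of -4.41 (limma adjusted p = 0.18) and was at 267, 273, 0 and 1.91 after IL-33, the male libraries 3 and 4 being lowest. After PBS it was at 306, 442, 344 and 921, and its log2 fold change by edgeR was -1.88. Setd6 was at 137, 0, 78.0 and 67.8 after IL-33 and at 0, 46.0, 0 and 0.732 after PBS.

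None of the 6 DNA methylation members passed limma's test (edgeR: 0; DESeq2: 1; unadjusted p under 0.05 for 2). Tet2, which oxidises methylcytosine and in mouse macrophages is known to limit Il6 expression, had 2039, 2472, 3508 and 2881 after IL-33 against 1349.7, 970.4, 1770.3 and 1811 after PBS. Its groups did not overlap, with a log2 fold change of 0.90 (95% interval 0.06 to 1.74; limma adjusted p = 0.22). Tet1 was at 1.04, 0, 1.97 and 0 after IL-33, that is 0 to 2 reads in each library, against 226, 475, 237 and 3.66 after PBS (limma adjusted p = 0.12, edgeR adjusted p = 0.0855, DESeq2 adjusted p = 7.41e-05). Tet3 and Dnmt3a, the most abundant of the de novo methyltransferases, had log2 fold changes of -0.53 and -0.49 (limma adjusted p = 0.61 and 0.53). The maintenance methyltransferase Dnmt1 had 31.2, 273, 273 and 441 after IL-33 against 158, 544, 323 and 584 after PBS, and Dnmt3b had 2.08, 288, 668 and 76.4 against 0, 0.852, 145 and 0 (limma adjusted p = 0.60 and 0.35).

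None of the 17 deacetylases passed limma's test (edgeR: 0; DESeq2: 0; unadjusted p under 0.05 for 2), and 13 of the 17 log2 fold changes were negative, with a median of -1.81 (-0.74 without IL-33 libraries 3 and 4). Of the 17, 15 had a mean under 1000. Among all tested genes of that level, 62.2% had a negative log2 fold change and the median was -0.72 (-0.21 without those libraries). Sirt3, a mitochondrial deacetylase, had 58.2, 117, 0 and 0.955 after IL-33 against 371, 679, 324 and 421 after PBS (log2 fold change -5.32, limma adjusted p = 0.0965). By edgeR the log2 fold change of Sirt3 was -3.32. Sirt7 had 1996, 2127, 1717 and 1159 after IL-33 against 1039.8, 991, 1144 and 1091 after PBS, without overlap (log2 fold change 0.68, limma adjusted p = 0.42). Sirt2, a mainly cytoplasmic tubulin deacetylase, overlapped at -0.53. The class I enzymes Hdac1, Hdac2 and Hdac3 had log2 fold changes of 0.049, -0.39 and -0.17. Hdac6 was at 0, 93.1, 0 and 4.78 after IL-33 and at 124, 84.3, 174 and 100.3 after PBS (limma adjusted p = 0.25).

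None of the 9 Brd members passed limma's test (edgeR: 0; DESeq2: 1; unadjusted p under 0.05 for 1). Brd2 and Brd3, readers of acetylated histones, had log2 fold changes of -0.017 and -0.13, with 95% intervals of -0.66 to 0.63 and -1.05 to 0.79. Brd1 had 3339, 3324, 5561 and 5693 after IL-33 against 4542, 3792, 4140.4 and 3409 after PBS (log2 fold change 0.13, 95% interval -0.52 to 0.78). Brd3os was at 23.9, 357, 331 and 0 after IL-33 and at 0 in every PBS library (limma adjusted p = 0.18, edgeR adjusted p = 0.0793, DESeq2 adjusted p = 4.70e-04).

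The members' level order changed between the groups. QuantSeq reads the 3' end of each transcript, so counts do not scale with gene length and levels can be set side by side. By mean normalised count under PBS the order began with Kmt2e, Chd9, Arid4a, Chd4 and Arid4b, all 5 of them called members. After IL-33 it began with Chd4, Kdm4a, Chd7, Brd1 and Brd2, and Chd9 stood at place 34. Kdm4a was at place 2 after IL-33 and 25 after PBS.

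As a share of all reads, members took 0.729, 0.615, 0.632 and 0.606% in IL-33 libraries 1 to 4, against 0.819, 0.947, 1.00 and 0.828% in PBS libraries 5 to 8. The groups did not overlap, with means of 0.645% ± 0.0568 after IL-33 and 0.899% ± 0.0903 after PBS (SD, n = 4 each). This share includes the members called lower. It was not taken without them and was not compared with other gene sets. Members with a value under 10 numbered 10, 12, 17 and 26 after IL-33 against 10, 7, 4 and 8 after PBS. The same count over all genes tested was 24.7, 27.1, 36.2 and 43.1% after IL-33 against 23.6, 27.4, 19.2 and 24.4% after PBS. The male IL-33 libraries thus held the most genes near 0 among members and among all genes, and their part in the low values of Smarca2, Arid3a, Kmt5c and Sirt3 in those libraries was not tested.

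**Figure D4:**
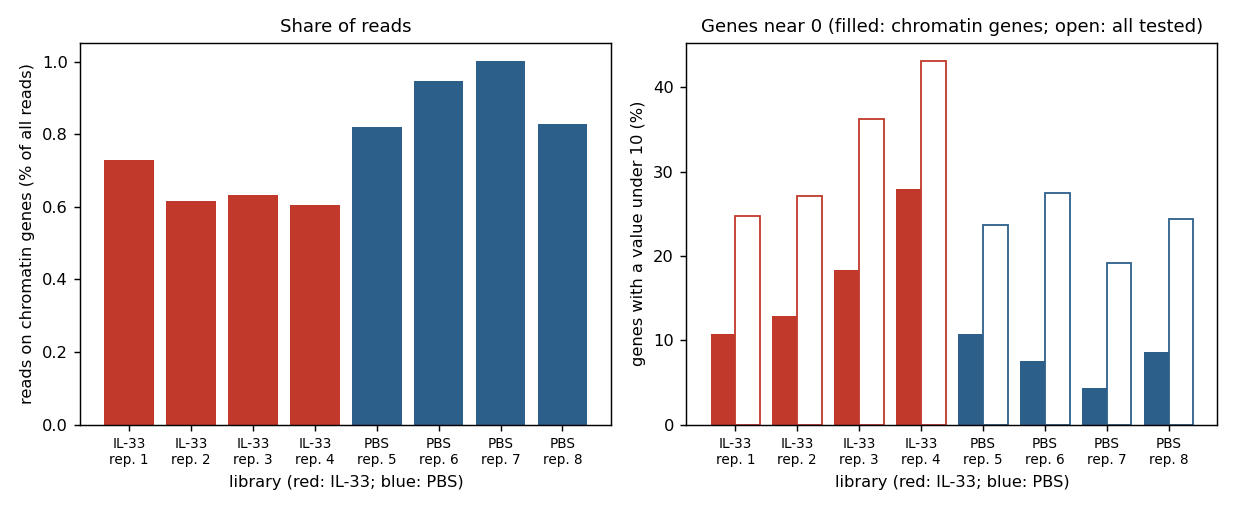
Share of reads on the 93 members (left, %) and share of genes with a value under 10 (right, %; filled bars for members, open bars for all genes tested) by library, IL-33 libraries first. IL-33 libraries take 0.606 to 0.729% of reads on members and PBS libraries 0.819 to 1.00%, and library 4 has the most genes near 0.

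Each called member was refitted with 1 library left out at a time and the tested genes kept as they were. Chd9 was called in 8 of 8 fits, Smarca2 in 7 (not without PBS library 7, adjusted p = 0.0540), Kmt2e in 5 (not without PBS 6, 7 or 8, highest adjusted p = 0.0591) and Arid3a in 4 (not without any 1 of the PBS libraries, highest 0.0749). Arid5b was called in 2, losing its call without IL-33 library 1 or 2 or any 1 PBS library (highest 0.105), as did Kdm4a (highest 0.126) and Kmt2c (highest 0.256). Arid4a and Kdm7a were called in 2, losing theirs without IL-33 library 2 or 3 or any 1 PBS library (highest 0.0896 and 0.112). Chd4 kept its call only without IL-33 library 4 (highest 0.153), and Arid4b in 0 of 8 fits (highest 0.191). No fit turned a direction among these 11 limma calls, and none could, because their groups did not overlap. Without any 1 PBS library Arid3a had a log2 fold change of -6.21 to -5.86, close to its -6.04 with all 8. Over the 8 fits, log2 fold changes were -7.92 to -6.24 for Smarca2, -6.86 to -5.31 for Arid3a, -2.67 to -2.17 for Chd9, -2.40 to -1.72 for Arid4a, -2.14 to -1.66 for Kdm7a, -1.51 to -1.02 for Arid4b and -1.43 to -1.16 for Kmt2e. They were 0.85 to 1.22 for Chd4 and 1.17 to 1.59 for Kdm4a. IL-33 library 4 moved Arid5b and Kmt2c most: without it Arid5b was at -3.86 and Kmt2c at -1.73, and without library 3 they were at -5.84 and -3.36. When genes were filtered again over the libraries left in, a change chosen after both sets of fits had been seen, Arid3a, Arid5b, Smarca2, Arid4a and Chd9 were called in 8 of 8, Kmt2e in 7, Kdm4a, Kmt2c and Kdm7a in 3, Chd4 in 2 and Arid4b in 1.

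**Figure D5:**
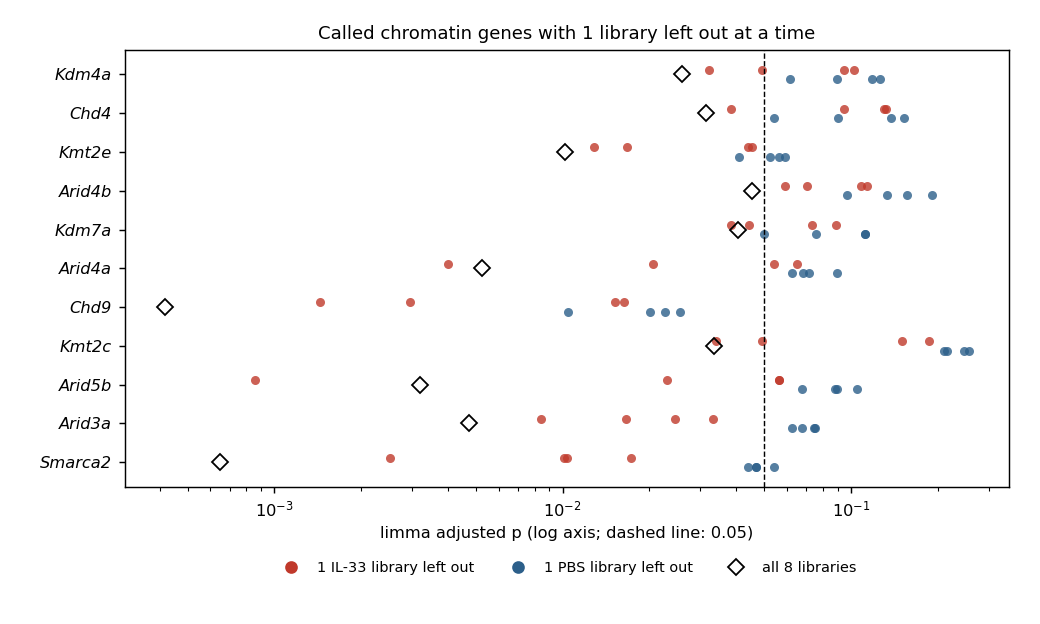
Limma adjusted p (log axis) of the 11 called members with 1 library left out at a time and the gene set kept, red for an IL-33 and blue for a PBS library left out, with a diamond for all 8 libraries and a dashed line at 0.05. Chd9 stays below the line in all 8 fits, Smarca2 in 7 and Arid4b in 0.

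Without IL-33 libraries 3 and 4 together, and with the gene set kept, 1 member was called higher and 8 lower, of which 6 were among the 11. That fit set 2 IL-33 libraries, both female, against 4 PBS libraries of both sexes. It had no sex term, so treatment and sex cannot be fully told apart in it. Over all genes in that fit, 1.71% were called higher and 2.29% lower, and the median log2 fold change was -0.10, against -0.53 over the members. Smarca2 then had a log2 fold change of -4.77, Arid3a of -4.00 and Arid5b of -4.31 (limma adjusted p = 0.00323, 0.0105 and 0.00492). Chd9 was at -2.42, Kmt2c at -2.25 and Kdm4a at 1.79 (limma adjusted p = 0.00840, 0.0137 and 0.0474). Kmt2e, Arid4a, Arid4b, Kdm7a and Chd4 were not called in that fit (limma adjusted p = 0.0719, 0.118, 0.179, 0.107 and 0.104), while Arid2, Kdm2b and Setd2 were called lower (-2.82, -2.35 and -1.22). With genes filtered again, 2 were called higher and 11 lower, and Kmt2e, Arid4a and Chd4 were among them.

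The IL-33 effect was also compared between females and males. No member was called for a difference (limma; smallest adjusted p = 0.783; edgeR 0; 7 members at an unadjusted p under 0.05), against 0% of all genes tested. All 11 called members and 67 of the 93 had the same sign in both sexes, and the share over all genes tested is not given. For the 11 the match was fixed in advance, because their groups did not overlap. Smarca2 had a log2 fold change of -4.58 in females and -9.56 in males, and Arid3a of -4.03 and -8.06 (adjusted p of the difference 0.783 for both, with 2 libraries for each sex and treatment). Chd9 had -2.54 in females and -2.29 in males. No member was called between the sexes (limma; smallest adjusted p = 0.928; 0 at an unadjusted p under 0.05), against 0.00721% of all genes. The X- or Y-linked demethylases left out by name were not among the members compared.

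Genes that work with these members were taken from lists of 151 names, of which 141 were tested. Of these, 2 rose (Hat1 and Prmt5), 4 fell (Jarid2, Idh1, Idh2 and Jmjd1c) and 135 were not called, with a median log2 fold change of -0.39. These calls are 4.26% of the partner genes, against 5.85% of all genes tested, whose median was -0.40, so the share is no higher than over the whole table. Hat1, which acetylates newly made histone H4, had 1013, 602, 1191 and 2846 after IL-33 against 5.93, 200.2, 96.9 and 218 after PBS (log2 fold change 4.02, limma adjusted p = 0.0323). Prmt5, which dimethylates arginine symmetrically, had 2483, 2373, 1729 and 5121 against 546, 675, 808 and 752 (1.96, limma adjusted p = 0.0160). Both were higher in every IL-33 library than in any PBS library.

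Jarid2, a cofactor of the Polycomb methyltransferase complex, had 261, 76.2, 2.96 and 84.0 after IL-33 against 779.9, 1657, 1194 and 891 after PBS (log2 fold change -4.41, limma adjusted p = 0.0307). Idh1 and Idh2 make alpha-ketoglutarate, the cosubstrate of Tet and JmjC enzymes. Idh1 had 84.2, 5.92, 2.96 and 24.8 after IL-33 against 538, 688, 372 and 680.5 after PBS (-5.14, limma adjusted p = 0.0446), and Idh2 had 356, 131, 294 and 6.69 against 1129.6, 3059, 1856 and 1410.0 (-4.09, limma adjusted p = 0.0201). Jmjd1c, a JmjC protein, had 805, 1352, 857 and 964 after IL-33 against 2948, 5458, 4578 and 2627 after PBS (-1.94, limma adjusted p = 0.00644). With 1 library left out and the gene set kept, Jmjd1c was called in 8 of 8 fits, Prmt5 in 3 (not without IL-33 library 2 or any 1 PBS library), Jarid2 in 2 (not without IL-33 library 1 or 2 or any 1 PBS library), Idh1 in 2 (not without IL-33 library 2 or 3 or any 1 PBS library), Idh2 in 1 (called without IL-33 library 4) and Hat1 in 0. Their log2 fold changes in these fits were -2.11 to -1.75 for Jmjd1c, 1.65 to 2.18 for Prmt5, -5.19 to -3.18 for Jarid2, -5.96 to -4.48 for Idh1, -4.70 to -2.85 for Idh2 and 2.88 to 4.54 for Hat1. Without IL-33 libraries 3 and 4, Prmt5 and Idh2 were called (limma adjusted p = 0.0344 and 0.0422) and Hat1, Jarid2, Idh1 and Jmjd1c were not (0.325, 0.0528, 0.0794 and 0.0535). Idh1 was not called by edgeR (adjusted p = 0.0793).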

How the data were processed

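Polyadenylated RNA was read from the 3' end (QuantSeq FWD kit, per the labels' protocols). The authors deposited 1 table of normalised counts (signal values); per the submitters' processing notes the tools were FastQC, STAR 2.5.4b, HTSeq 0.9.0 and DESeq2 1.24.0 with mm10/GRCm38, in roles not given there. The sources used here name neither the strand setting nor the annotation used for counting. All values above 0 were whole multiples of 1 read per library (100%, tolerance 0.01), which recovered the reads used for edgeR and DESeq2. A value of 0 allows up to 3 reads, which is 2.20 to 3.12 on the deposited scale and covers counting error only. The main test was limma 3.58.1 with a variance trend (R 4.3.3) on log2(value + 1) for genes with a mean of at least 10, two-sided, Benjamini-Hochberg adjusted over 13877 genes and called under 0.05. Alternatives were edgeR 4.0.16, DESeq2 1.42.0, other pseudocounts, filters and scalings, sex as a covariate, and libraries left out. Scripts were tested on simulated data. Named members were all called members, all Tet, Dnmt and Ezh genes, and in each class the 2 most abundant and the 2 with the largest change; the values of other members named for their role or for groups without overlap had been seen when they were picked. The result of 1 member is not reported here. Members and lists were chosen with earlier results of these data known. Gene positions and overlaps came from GENCODE M21 (GRCm38). Exons of 33 members, 6 of them called (Smarca2, Kmt2e, Kmt2c, Arid4b, Kdm7a and Chd9), overlap a gene on the opposite strand.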

Additional observations from a re-analysis of the deposited data

Results flagged for a closer look

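A library far from the other 3 of its group was found in 11 of 76 groups tested over the 38 named members, where chance gives about 1 group in 20 if values are normally distributed, a condition not tested for these counts. After IL-33, Arid4a was at 3495 in library 1, Kdm4b at 476 in library 1, Hdac6 at 93.1 in library 2, Kdm1b at 490.5 in library 3 and Setd2 at 2693 in library 4, each above the other IL-33 libraries. After PBS, Setd2 was at 4895, Sirt2 at 2951 and Setd6 at 46.0 in library 6, and Smarca2 at 4181 and Dnmt3b at 145 in library 7, each above the other PBS libraries. Ezh2 was at 108 in PBS library 8, below the other 3.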

How the results depend on the processing

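No paired analysis was possible because the groups share no replicate numbers. Leave-one-out fits kept the gene set of all 8 libraries, as planned, in which 18 to 86 genes were at 0 in all libraries left. Filtering genes again in each fit was added after the data were seen, and was chosen knowing that it gives steadier calls: 5 of 11 called members passed in 8 of 8 fits, against 1 with the planned set. Members called higher (2) numbered 0 to 2 when 1 library was left out (0 to 2 with genes filtered again), 1 without IL-33 replicates 3 and 4, 1 with quantile normalization or edgeR, and 0 with no filter, no variance trend or an adjusted p under 0.01. Members called lower (9) numbered 1 to 10 with 1 library left out (5 without PBS 6 with genes filtered again), and 5 at an adjusted p under 0.01. With no variance trend they numbered 2, Smarca2 and Arid3a, and Chd9 was not called. With sex as a covariate they numbered 7, without Arid4b and Kdm7a. Genes called higher (424) numbered 220 to 367 with 1 library left out, 237 without that pair, 175 with no trend, 790 with DESeq2 and 228 at 0.01. Genes called lower (388) numbered 107 to 419 with 1 library left out (185, 153, 176 and 173 without PBS 5, 6, 7 and 8 with genes filtered again), 204 with no filter, 238 with no trend, 877 with DESeq2 and 149 at 0.01. Directions turned for 5 named members, none of them called. Leaving libraries out could not turn the called members, whose groups did not overlap. Brd1 was at -0.060 with quantile normalization and -0.25 without the pair, and Kdm2a at -0.087 with quantile normalization. With 1 library left out, Kdm2a ran from -0.076 (IL-33 1; -0.0080 without PBS 7) to 0.29, Brd2 from -0.23 to 0.12 (0.044 and 0.023 without IL-33 1 and 4, 0.055 without PBS 5), Chd7 from -0.16 to 0.076 (0.047 without PBS 7) and Sirt2 from -0.84 to 0.054, with the same values when genes were filtered again. Over 1060 alternatives for single members, 916 kept direction and side of the threshold, 109 lost a call, 13 gained one and 22 reversed. Only the 11 called members could lose a call, so the 916 do not measure how stable the calls were. The 1060 also cover named members not called in the main fit, and fits with genes filtered again. The median log2 fold change, -0.63 over members and -0.40 over all genes, was -0.65 and -0.12 with quantile normalization, -0.40 and -0.081 with edgeR, -0.41 and -0.089 with DESeq2, and -0.53 and -0.099 without the pair. The cause was not tested in any case.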
